A study of Homo sapiens with 8 samples.

Results

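HEK293T cells kept overnight in medium without leucine (Leu-) were compared with cells in amino acid sufficient medium (Suff), both lysed without cycloheximide, by ribosome profiling. HEK293T, derived from human embryonic kidney, is an established line that expresses the large T protein of SV40. Ribosome profiling sequences the mRNA fragments that ribosomes shield from RNase I, so the density of fragments on a coding sequence follows the number of ribosomes on it. The series holds 8 libraries, 1 for each of Suff, Leu-, arginine-deficient (Arg-) and methionine-deficient (Met-) medium with a cycloheximide pre-treatment and 1 for each without it. All media contained dialysed serum, and only the named amino acid was left out. The comparison here rests on 2 of the 8 libraries, and 7565 of the 11627 mRNAs listed in either library passed its filter, a mean RPKM (reads on the coding sequence, divided by its length and by the library's total) of at least 10 over the pair. Each mRNA was represented by its highest transcript, which was the same transcript in both libraries wherever both listed one. With 1 library a side no difference was tested. The values describe these libraries, and intervals cover counting error only.

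Cells sense missing leucine along different routes. Uncharged tRNA activates the kinase GCN2, which phosphorylates eIF2, slows initiation on most mRNAs and favours translation of ATF4, the transcription factor that turns on genes of amino acid synthesis, uptake and tRNA charging. Low leucine also lets Sestrin2 restrain GATOR2, which leaves GATOR1 free to turn down the kinase mTORC1, and mRNAs that begin with a terminal oligopyrimidine (TOP) tract, above all those of ribosomal proteins, are then poorly loaded with ribosomes. Footprint density combines mRNA level and ribosome load per mRNA, and the 2 cannot be told apart here. RPKM is a share of a library, so a general drop in translation leaves no trace in it.

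The Suff library held 3139745 reads on coding sequences and the Leu- library 1496852, recovered from the steps of the RPKM values. Both files listed only transcripts with 5 or more reads, and the median transcript had 88 reads in Suff and 54 in Leu-. Of 8 transcripts known from HEK293 lines (VIM, KRT8, KRT18, NEFL, NEFM, INA, GATA3 and LIN28B) all 8 were listed and compared. Of 8 markers of blood, fibroblasts and hepatocytes, 2 were listed in these libraries, COL1A1 at 1.59 RPKM in Suff and 3.95 in Leu- and COL3A1 at 0.43 RPKM in Suff, and none passed the filter.

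In Leu-, 521 of the 7565 mRNAs were at least 2-fold higher than in Suff, which is 6.89%, and 160 were at least 2-fold lower, which is 2.12%. The ratio is log2 of (RPKM + 1) in Leu- over (RPKM + 1) in Suff, and its median over all mRNAs was 0.14. An mRNA at or below 6.33 RPKM in one library could pass the filter only by being called, which held for 53 of the 521 higher and 11 of the 160 lower mRNAs. Among the 6965 mRNAs at 10 RPKM or more in both libraries, 359 were higher and 127 lower. The higher mRNAs made up 76.5% of the calls, or 56.4% (341 higher, 264 lower) with the ratios centred on their median. Read counts could be recovered for 487 of the higher mRNAs, and the 95% exact interval of the ratio lay above 1 for 483 of them and above 2 for 164. Of 148 lower mRNAs with reads, the interval lay below 1 for 146 and wholly past a 2-fold decrease for 46. The mRNAs were called on these same reads, so the intervals describe counting error and give the calls no separate support.

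**Figure D1:**
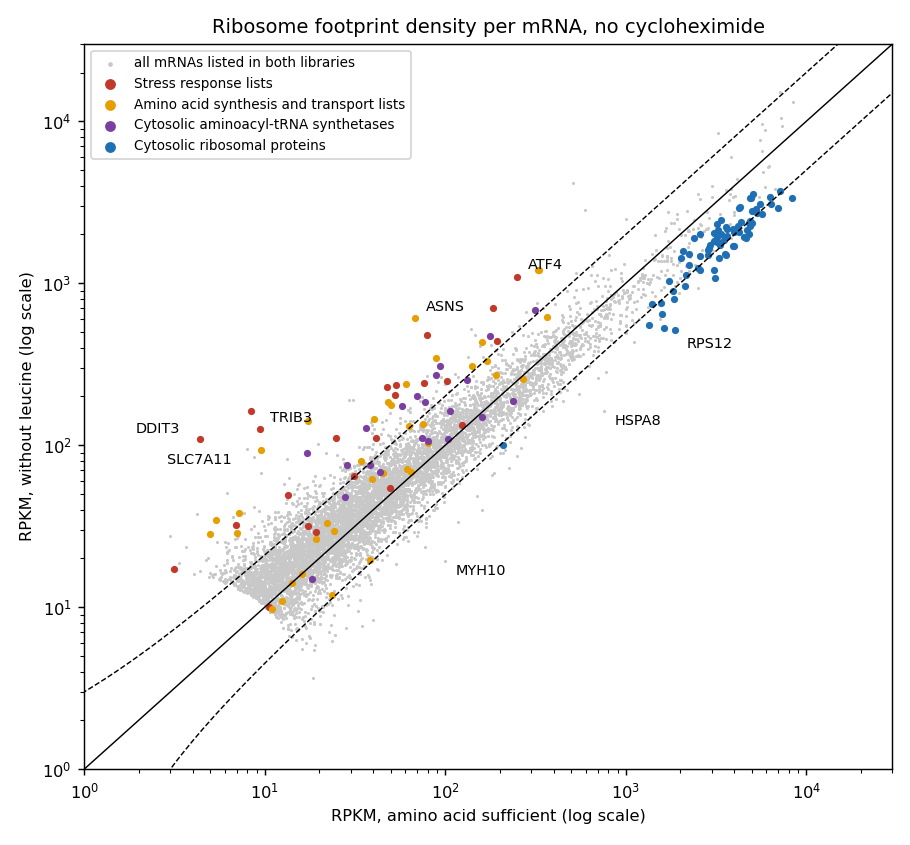
RPKM of each compared mRNA that both libraries listed, Suff on the horizontal and Leu- on the vertical axis (both log scales), with the line of equality and dashed lines at a 2-fold change of RPKM + 1. Stress response, amino acid and synthetase mRNAs lie mostly above the line of equality, and all ribosomal protein mRNAs (blue) lie below it.

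The promoters of several of the mRNAs that were higher hold the C/EBP-ATF response element, the sequence through which ATF4 and its partners act. The element was searched as TGATGNAA on both strands of the RefSeq promoter windows (GRCh38.p14, 250 bases before to 50 after the gene start). Where the table gives several starts of a gene the first was used, and other starts were not searched. The sites below belong to amino acid synthesis, transport and synthetase genes at least 2-fold higher in Leu-. GOT1 (log2 0.84) and SLC1A3 (log2 -0.94) of the same lists also hold the element and were not called higher. Each is printed as 30 bases, 5′ to 3′ on the strand that reads TGATG, with the element in capitals.

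ASNS: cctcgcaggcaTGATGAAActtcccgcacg

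CARS1: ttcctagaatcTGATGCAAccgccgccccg

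SLC3A2: ggagcTGATGTAAggagtcctgcacattac

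SLC7A1: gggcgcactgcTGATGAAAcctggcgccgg

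SLC38A1: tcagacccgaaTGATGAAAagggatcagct

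AARS1: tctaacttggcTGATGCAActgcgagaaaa

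TARS1: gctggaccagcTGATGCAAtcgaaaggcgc

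MARS1: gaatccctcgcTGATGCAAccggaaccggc

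IARS1: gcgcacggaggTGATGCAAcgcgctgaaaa

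NARS1: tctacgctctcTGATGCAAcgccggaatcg

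MTHFD1L: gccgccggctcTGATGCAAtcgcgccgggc

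The ASNS window spans chr7:97872458-97872487 on the minus strand, and its element begins 68 bases before the RefSeq start used. It lies inside the span of the measured Ensembl transcript, which starts farther upstream. The windows of CARS1 (chr11:3057407-3057436), AARS1 (chr16:70289675-70289704) and IARS1 (chr9:92293692-92293721) are on the plus strand, and those of TARS1 (chr5:33440956-33440985), MARS1 (chr12:57488053-57488082) and SLC3A2 (chr11:62881719-62881748) on the minus strand, all opposite to their genes. The windows of SLC7A1 (chr13:29595663-29595692), SLC38A1 (chr12:46266502-46266531) and NARS1 (chr18:57621804-57621833) on the minus strand and of MTHFD1L (chr6:150866346-150866375) on the plus strand read along the gene. The elements of SLC3A2, SLC7A1, TARS1 and NARS1 lie past the gene start. All 6 synthetase elements and that of MTHFD1L have C at the open letter, those of ASNS, SLC7A1 and SLC38A1 have A and that of SLC3A2 has T. The element stood in 6 of the 16 cytosolic synthetase promoters given, in 4 of 20 amino acid transporter promoters and in 3 of 12 promoters of asparagine, serine and one-carbon enzymes. It stood in 4.75% of the 421 promoters found for the higher mRNAs, 1.6% of the 125 for the lower and 1.32% of the 5611 for mRNAs that were neither. Over the promoters of all 27305 genes the share was 3.67%, and over those of all compared mRNAs it was 1.56%, so the higher mRNAs exceeded the whole table by little and the other compared mRNAs by more. A match is no evidence of binding, and a window without one says only that these letters are not there.

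The transcription factors of the stress response were among the largest differences. All 8 compared members of a list of 10 (ATF4 and factors that act with or downstream of it) were at least 2-fold higher, with a median log2 ratio of 2.18, against 6.89% and 0.14 over all mRNAs. ATF4 itself (chr22:39520564-39522683) stood at 251 RPKM in Suff and 1098 in Leu-, with 831 and 1735 reads, a ratio of 4.38 (95% interval 4.03 to 4.76). DDIT3, also called CHOP, a factor that promotes cell death under lasting stress, stood at 4.401 RPKM in Suff and 109.6 in Leu-, the highest ratio of all mRNAs listed in both libraries (log2 4.36). Its Suff value rested on 8 reads, so that the interval of the ratio ran from 12.1 to 59.4. NUPR1, a stress-induced nuclear protein, stood at 8.41 and 163 RPKM, again with 8 reads in Suff. TRIB3, a pseudokinase that ATF4 induces and that restrains it, stood at 9.35 and 125 RPKM. The remaining members had smaller ratios with the same direction. ATF3 stood at 47.8 in Suff and 228 in Leu-, CEBPB at 24.9 and 111, and CEBPG, a dimer partner of ATF4, at 75.9 and 243 RPKM. PPP1R15A, the GADD34 subunit that brings a phosphatase to eIF2, stood at 3.15 and 17.2 RPKM. It and DDIT3 were below 6.33 RPKM in Suff, so their calls followed from passing the filter. ATF5 (4.502 and 11.02 RPKM) and JDP2 (4.85 and 12.7 RPKM) were under the filter.

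In the other 2 starved libraries made without cycloheximide, ATF4 stood at 700 RPKM in Arg- and 662 in Met-. DDIT3 stood at 101 in Arg- and 26.5 in Met-, TRIB3 at 162 and 27.2, and NUPR1 at 229 and 53.2 RPKM. For these 3 mRNAs the Leu- value lay nearer to that of Arg- than to that of Met-, while CEBPG was highest in Met-, at 420 RPKM. These comparisons share the Suff library, and their values are given side by side only.

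**Figure D2:**
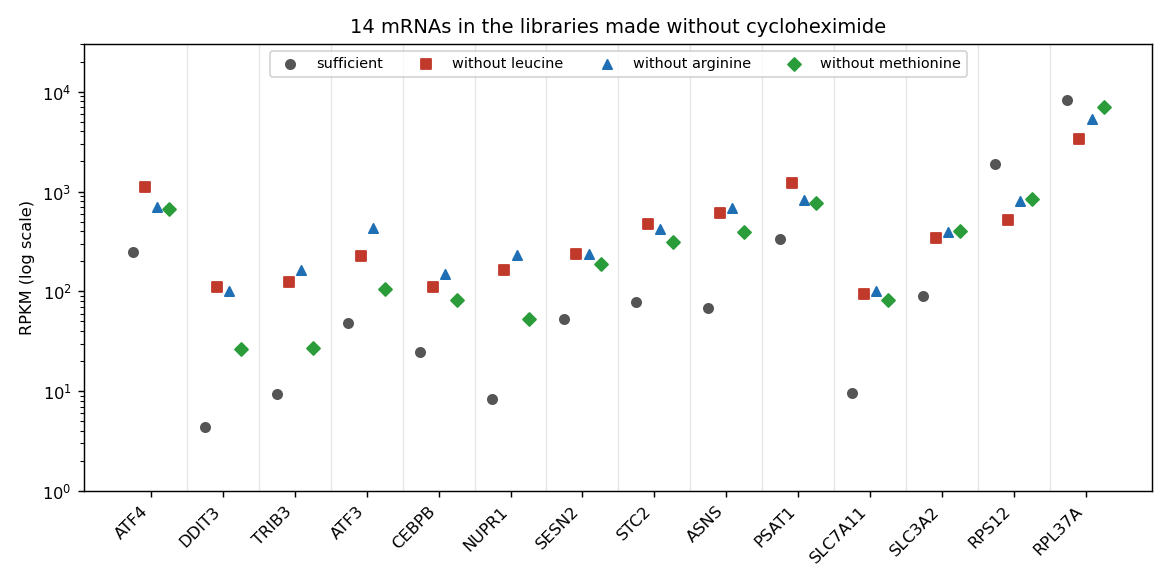
RPKM (log scale) of selected mRNAs in the 4 libraries made without cycloheximide, 1 point a library. The Suff point is the lowest of the 4 for all of the stress response, synthesis and transport mRNAs shown and the highest for RPS12 and RPL37A.

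Targets and effectors of the stress response shared the direction in part. Of 25 effectors in the list, 15 were compared, and 10 (66.7%) were at least 2-fold higher, against 6.89% of all mRNAs. None was lower, and the median log2 ratio was 1.27. STC2, a secreted glycoprotein, had 79.2 RPKM in Suff and 477 in Leu-. SESN2, the leucine sensor that holds back GATOR2, had 53.4 and 236 RPKM, ARHGEF2 had 6.89 and 32.4, and GADD45A, a growth arrest protein, had 52.4 and 205 RPKM. ULK1, the kinase that starts autophagy, was the lowest of the list, with 10.5 RPKM in Suff and 9.96 in Leu-. Genes of autophagy gave mixed values. GABARAPL1 had 17.3 and 31.8 RPKM. SQSTM1 had 124 and 132 RPKM and MAP1LC3B 49.7 and 54.8, with intervals of 0.92 to 1.24 and 0.69 to 1.73. CHAC1, FGF21 and VEGFA were not listed in either library.

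Enzymes that make asparagine, serine, glycine and one-carbon units were higher in Leu- in 9 of 18 compared cases (50%, against 6.89% of all mRNAs). Their median log2 ratio was 0.94. ASNS, asparagine synthetase (chr7:97852118-97872542), had 68.0 RPKM in Suff and 607 in Leu-, a ratio of 8.92 (7.95 to 10.0). CTH, which makes cysteine from cystathionine, had 17.3 and 141 RPKM. ALDH1L2, the mitochondrial formyltetrahydrofolate dehydrogenase, had 7.24 and 38.3 RPKM. All 3 enzymes of the serine pathway were on the same side. PHGDH had 326 RPKM in Suff and 1214 in Leu-, PSAT1 had 332 and 1203, and PSPH had 48.4 and 184. The proline enzymes PYCR1 and ALDH18A1 had log2 ratios of 0.50 and 0.57, and GOT2, the mitochondrial aspartate aminotransferase, was the lowest at -0.06. As a share of all coding reads, the 17 members with recovered reads took 0.231% in Suff (Wilson 95% interval 0.226% to 0.237%) and 0.558% in Leu- (0.546% to 0.570%). PCK2, the mitochondrial phosphoenolpyruvate carboxykinase and another ATF4 target, had 11.1 and 144 RPKM. In the glycolysis and citric acid cycle list, which holds it, 2 of 31 compared members (6.45%) were above 2-fold, a share near that of all mRNAs. The median was 0.13, and GAPDH had 5279 and 2736 RPKM.

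Amino acid transporters were higher in 9 of 19 compared cases (47.4%, against 6.89% of all mRNAs), with a median log2 ratio of 0.96. SLC7A11, the cystine importer, had 9.52 RPKM in Suff and 93.6 in Leu-, and SLC1A4, a carrier of small neutral amino acids, had 5.38 and 34.7. Its relative SLC1A5, the glutamine carrier, had 140 and 310 RPKM, and SLC6A9, a glycine carrier, had 4.96 and 28.4. SLC1A4 and SLC6A9 stood below 6.33 RPKM in Suff. Transporters that carry leucine did not move together. SLC3A2, the heavy chain of the leucine exchanger, had 89.4 and 345 RPKM, a ratio of 3.86 (3.47 to 4.30), while its light chain SLC7A5 had 170 and 333, a ratio of 1.96 (1.77 to 2.16). SLC43A1, a leucine facilitator, had 7.01 and 28.6 RPKM, and its relative SLC43A2 had 12.4 and 10.9. SLC7A6, another light chain that takes up leucine, and SLC1A3 were the lowest, at 38.1 and 19.4 RPKM and at 23.7 and 11.9 RPKM (both log2 -0.94).

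Cytosolic aminoacyl-tRNA synthetases, which load amino acids onto tRNA, were higher in 10 of 21 cases (47.6%, against 6.89% of all mRNAs). None was lower, and the median log2 ratio was 0.96. Their coding sequences are long, with a median of 2217 nt. Among mRNAs of 2007 to 2589 nt with a complete coding sequence, 12.2% were higher and the median was 0.39. CARS1 had 17.2 RPKM in Suff and 88.9 in Leu-, AARS1 had 36.4 and 128, GARS1 93.4 and 307, and TARS1 89.3 and 271. LARS1, the leucyl-tRNA synthetase and a leucine sensor for mTORC1, was the eighth highest, at 28.7 and 75.9 RPKM, a ratio of 2.65 (2.28 to 3.07). The synthetase of the missing amino acid did not lead its family. FARSA, the alpha subunit of the phenylalanyl enzyme, was the lowest at 237 and 188 RPKM, and its partner FARSB had 74.1 and 111. The mitochondrial family was nearly flat. Of 16 compared members, TARS2 alone (6.25%) passed 2-fold (34.9 and 76.2 RPKM), the median was 0.18, and LARS2 had 17.9 and 21.7 RPKM. The 21 cytosolic mRNAs took 0.391% of coding reads in Suff and 0.804% in Leu-, and 0.813% in Arg- and 0.723% in Met-.

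**Figure D3:**
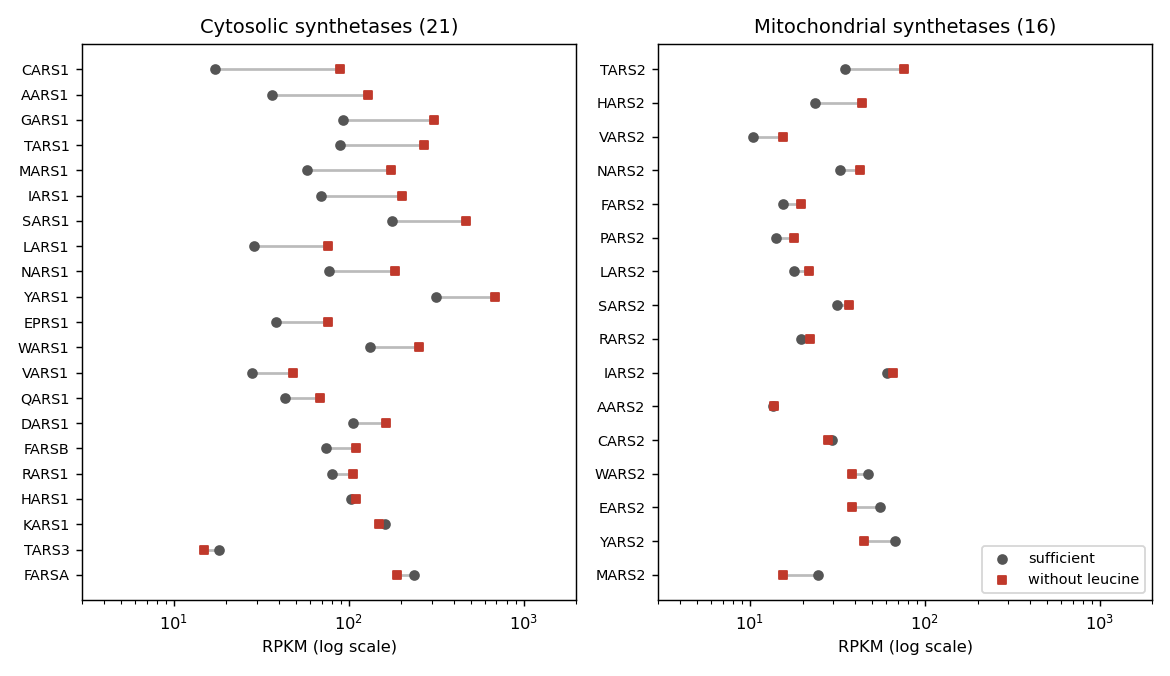
RPKM (log scale) of each aminoacyl-tRNA synthetase mRNA in Suff (circles) and Leu- (squares), ordered by ratio, for the 21 cytosolic (left) and 16 mitochondrial (right) members compared. Of the cytosolic members 10 lie at least 2-fold to the right in Leu-, against TARS2 alone of the mitochondrial ones.

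Called members of the sensing lists are read against 6.89% higher over all mRNAs. The list of leucine sensing and GATOR complexes includes sestrins, CASTOR and GATOR subunits and LARS1, and not every member senses leucine. Of its 14 compared members 3 (21.4%) were higher, SESN2, ITFG2 and LARS1, and the median was 0.18. ITFG2, a subunit of KICSTOR, which places GATOR1 on the lysosome, had 12.8 and 35.8 RPKM. SESN1 and SESN3, the other sestrins, had log2 ratios of 0.78 and -0.25. Of 22 members of the mTORC1 list 2 (9.09%) were higher, a share near that of all mRNAs. PDCD4, an inhibitor of the helicase eIF4A, had 90.8 and 247 RPKM, and EIF4EBP1, the 4E-BP1 repressor that mTORC1 inactivates, had 280 and 664. The second repressor, EIF4EBP2, had 111 and 60.7 RPKM. Among eIF2 kinases and phosphatase subunits PPP1R15A was the only one of 14 (7.14%) above 2-fold, again near the overall share, and EIF2AK4, which is GCN2, was under the filter with 8.94 and 8.50 RPKM. Enzymes that break down branched-chain amino acids included 4 of 22 (18.2%) above 2-fold and none below. BCAT1, the cytosolic transaminase that takes the first step, had 85.7 RPKM in Suff and 196 in Leu-. BCKDK, the kinase that switches off the pathway's dehydrogenase, was the lowest at 80.5 and 59.9 RPKM.

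Of 80 ribosomal protein genes 75 had a compared mRNA, and each of these was lower in Leu-. The 75 had a log2 ratio below 0, from -1.87 to -0.34 with a median of -0.93, and 32 of them (42.7%) were at least 2-fold lower, against 2.12% of all mRNAs. Of the 31 in the small subunit 16 were called and of the 44 in the large subunit 16. RPS12 had 1885 RPKM in Suff and 516 in Leu-, a ratio of 0.274 (0.242 to 0.308), RPSA had 1634 and 533, and RPS26 had 3125 and 1081. In the large subunit RPL37A, one of the densest mRNAs of the data, had 8284 and 3371 RPKM. The mRNAs nearest to no change were RPL10A (2395 and 1895 RPKM) and RPL30 (2593 and 2023). Together the 73 with recovered reads took 13.8% of coding reads in Suff and 7.58% in Leu-, with 11.8% in Arg- and 9.84% in Met-. Their coding sequences are short, and the median of short mRNAs lay below that of all mRNAs. The 673 other mRNAs no longer than the median ribosomal protein mRNA (471 nt) had a median log2 ratio of -0.10, and 3.71% of them were at least 2-fold lower and 7.73% higher. Many of these genes have processed copies, and only uniquely mapped reads were counted, so their levels are uncertain.

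The gene starts below show the TOP tract in 5 of the ribosomal protein genes with the largest decreases, and RPS26, whose first listed start has none. Each line gives the 10 bases before and 20 from the RefSeq gene start, with the unbroken pyrimidine tract from the first base in capitals.

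RPS12: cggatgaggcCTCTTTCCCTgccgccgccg

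RPSA: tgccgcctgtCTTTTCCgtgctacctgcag

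RPS26: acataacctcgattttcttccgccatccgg

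RPL37A: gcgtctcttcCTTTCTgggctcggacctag

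RPL26: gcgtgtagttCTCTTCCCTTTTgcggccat

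RPS23: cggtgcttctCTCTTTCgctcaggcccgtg

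The RPS12 window is chr6:132814559-132814588 on the plus strand. A start with C and 4 further pyrimidines was found in 44 of 64 ribosomal protein promoters given, in 6.17% of those of all compared mRNAs and in 4.04% of all promoters. The 41 compared ribosomal protein mRNAs with such a start had a median log2 ratio of -0.99 and the 18 without it -0.85. Outside the ribosome the start went with little difference. The 339 other mRNAs that had it showed a median of 0.07 and the 5759 without it 0.15, and 0.885% and 1.68% of them were at least 2-fold lower. A listed gene start can differ from the one used in these cells, and the letters say nothing on the factor that reads them.

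Other known TOP mRNAs differed less than the ribosomal proteins. Of 21 compared, TPT1 alone (4.76%, against 2.12% of all mRNAs) was 2-fold lower (1114 and 433 RPKM). The median was -0.09, and 17 of the 21 lay below the median of all mRNAs (0.14). EEF1A1, the main elongation factor, had 3764 and 3545 RPKM (ratio interval 0.92 to 0.97), NPM1 had 5869 and 3943, and EEF2, which moves the ribosome along, had 576 in Suff and 926 in Leu-, a ratio interval of 1.54 to 1.68. IPO5 was the highest of the list, at 85.6 and 140 RPKM. Translation initiation factors had no member of 30 past 2-fold (median -0.17, from EIF3G at -0.67 to EIF3D at 0.69). Mitochondrial ribosomal proteins had a median of -0.34 with 3 of 76 lower (3.95%, against 2.12% of all mRNAs), MRPL33, MRPL20 and MRPL13. MRPL33 was listed at 27.3 RPKM in Suff and not in Leu-, so its call and its plotted point come from the pseudocount alone. Nucleolar factors of ribosome assembly were on both sides, with a median of -0.04. Of 35, NOLC1, TCOF1 and NOC3L (8.57%) were higher and RRP9 (2.86%) lower, against 6.89% and 2.12% of all mRNAs.

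**Figure D4:**
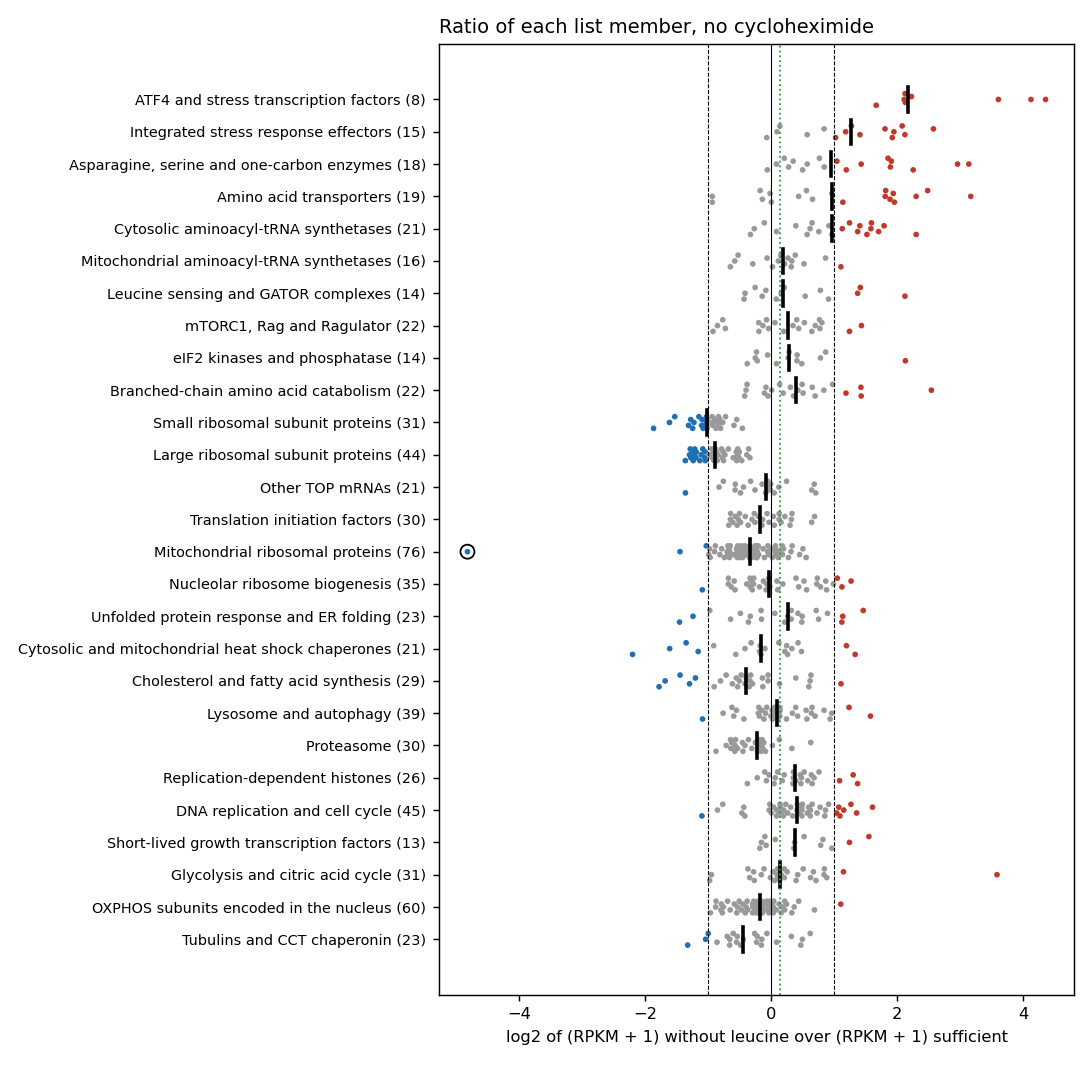
log2 ratio of Leu- over Suff (RPKM + 1) of every compared member of 27 gene lists, number of members in brackets. The black bars are list medians, the dotted line is the median of all mRNAs (0.14), dashed lines mark 2-fold, red and blue points are past it, and the ringed point (MRPL33) was not listed in Leu-. The 5 lists at the top and the 2 of cytosolic ribosomal proteins have their medians farthest from 0.

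Protein folding genes differed gene by gene. Of 21 compared heat shock chaperones 4 (19.0%) were lower and 2 (9.52%) higher, against 2.12% and 6.89% of all mRNAs. HSPA8, the constitutive cytosolic HSP70, had 754 RPKM in Suff and 163 in Leu- (474 reads), a ratio of 0.216 (0.196 to 0.238), its cochaperone DNAJB1 had 150 and 48.3, HSPE1 had 1545 and 605, and DNAJA1 391 and 175. The 2 higher members were LONP1 (39.9 and 102 RPKM) and HSPA9 (180 and 413 RPKM). HSPD1, the partner of HSPE1, had 643 and 770 RPKM. Among genes of the unfolded protein response in the endoplasmic reticulum 3 of 23 (13.04%) were higher and 2 (8.70%) lower. HERPUD1 had 44.96 and 126 RPKM, SDF2L1 had 186 and 67.2 and CRELD2 70.6 and 29.3, while HSPA5, the BiP chaperone, had 137 and 107. Of 29 genes of cholesterol and fatty acid synthesis 5 (17.2%) were lower. Among them INSIG1 had 118 and 33.6 RPKM, MSMO1 77.6 and 23.5, IDI1 181 and 65.6 and FASN 77.8 and 33.2. SREBF1, the transcription factor gene of the pathway, was the only one higher, at 6.13 and 14.4 RPKM, and its Suff level was under 6.33.

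Lists of growth and division lay on both sides of the overall median of 0.14. Of 45 replication and cell cycle mRNAs 7 (15.6%, against 6.89% of all mRNAs) were higher and 1 (2.22%, against 2.12%) lower, and the median was 0.42. RRM1, a ribonucleotide reductase subunit, had 44.7 and 138 RPKM, MCM2 72.2 and 186 and CDKN1A, the p21 inhibitor, 33.5 and 75.6, while CCND1, cyclin D1, had 59.2 and 27.1. Histone mRNAs took 3.92% of coding reads in Suff and 5.48% in Leu-. They took 9.56% in Arg- and 2.05% in Met-, and near-identical copies make their single values uncertain. No member of 30 proteasome mRNAs passed 2-fold (median -0.23, 28 below the overall median). Nuclear genes of oxidative phosphorylation had 1 of 60 (1.67%) past it, NDUFS1, and a median of -0.18. Tubulins and the CCT chaperonin had 3 of 23 (13.04%) lower, all tubulins (TUBB2A, TUBB6 and TUBG1), and a median of -0.44. Lysosome and autophagy genes had 2 of 39 (5.13%) higher, ATP6V1A and NBR1, and 1 lower, GLA, and among 13 short-lived transcription factors of growth 2 (15.4%), KLF10 and JUN, were higher.

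The extremes outside these lists differed in kind on the 2 sides. Of the 15 largest increases 7 were DDIT3, NUPR1, TRIB3, PCK2, SLC7A11, ASNS and CTH. TXNIP, which binds thioredoxin, had 8.67 RPKM in Suff and 84.1 in Leu-, and DDR2, a collagen receptor, had 4.22 and 37.5. LSM4, part of the RNA-binding LSm ring, had 510 and 4187 RPKM, with 757 in Arg- and 2762 in Met-. HOXD1, a homeobox gene, had 106 and 720 RPKM, with 3884 in Arg- and no listed value in Met-. RENBP, ZNF107 and NTF4 had 6.20 and 51.0, 2.99 and 27.4, and 9.56 and 67.5 RPKM. DDR2, RENBP and ZNF107 were below 6.33 RPKM in Suff, so their calls followed from passing the filter. The transcript ENST00000446533, which carries no gene name here, had 8.01 and 94.96. The largest decreases included several long mRNAs of large proteins. MYH10 and MYH9, heavy chains of nonmuscle myosin, had 99.2 and 19.3 RPKM and 160 and 39.5 RPKM. IQGAP1, a scaffold of the actin cortex, had 18.5 and 3.63 RPKM, and PRKDC, the catalytic subunit of DNA-PK, had 34.6 and 7.66. Their read counts in Leu- were 174, 348, 27 and 142, and the call of IQGAP1, below 6.33 RPKM there, followed from passing the filter. MCRIP2, EGLN3, TESC, NUDT11 and SLC35G1 were also among the 15, with 5 to 9 reads each in Leu-, along with RPS12, HSPA8, INSIG1, MSMO1 and 2 transcripts without a gene name. A further 7 mRNAs were listed in 1 library only and are named because of it. BOK (20.9 RPKM), HRK (31.5 RPKM), both of the BCL2 family of cell death proteins, and ENST00000604093 (116 RPKM) were listed in Leu- and not in Suff, and MRPL33, FKBP1B, PIERCE1 and ENST00000536684 in Suff and not in Leu-.

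The pair made after cycloheximide pre-treatment shares no library with the pair above and gave a second look at the same media. Its files list no transcript under 64 reads, so mRNAs low in Suff are seldom listed there, and 26.3% of its 6232 compared mRNAs were at least 2-fold higher and 6.32% lower. Among the 5208 listed in both libraries these shares were 12.1% and 7.28%. Of the 521 mRNAs higher without cycloheximide 160 were listed in both, and 102 of them (63.8%) were higher there too, with 1 lower. Of the 160 lower mRNAs 119 were listed in both, and 64 (53.8%) were lower there, with 0 higher. Of mRNAs called neither way, 10.8% were higher and 5.79% lower with cycloheximide. Read the other way the share was smaller. Of 597 mRNAs higher with cycloheximide, listed in both of its libraries and compared in both pairs, 102 (17.1%) were higher without it. Of 331 lower, 64 (19.3%) were lower without it. The deposited records name the tables without cycloheximide as free of duplicate reads. The 2 pairs may therefore differ in that step too, and its effect was not tested.

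Counts by list in that pair are read against 12.1% higher and 7.28% lower over all mRNAs listed in both of its libraries. The median log2 ratio with cycloheximide was 0.05 over the 4873 of these also compared without it. The stress factors listed in both libraries of that pair were higher in 5 of 5 cases. ATF4 had 76.0 RPKM in Suff and 342 in Leu- with cycloheximide (log2 2.16, against 2.13 without it). The synthetases were higher in 17 of 20 cases (median 1.45), the synthesis enzymes in 9 of 13 and the transporters in 6 of 10. Ribosomal proteins were lower in 44 of 74 cases (median -1.18). Other lists had another pattern there than without cycloheximide. Of 17 heat shock chaperones 8 were higher and 3 lower (median 0.72). Of 22 sterol and fatty acid genes 3 were higher and 1 lower (median 0.06), near the values over all mRNAs there. The mTORC1 list had 1 of 15 higher and 4 lower (median -0.51), and 9 of 21 other TOP mRNAs were higher and 1 lower (median 0.86). SQSTM1 had 36.7 and 103 RPKM. ASNS had 22.3 and 262 RPKM there, SESN2 20.1 and 157, and RPS12 1784 and 402. Some of the extremes had another value with cycloheximide. LSM4 had 1118 RPKM in Suff and 828 in Leu-, MYH9 had 13.6 and 19.1, MYH10 9.47 and 9.83, MSMO1 31.99 and 33.8, and FASN 12.7 and 15.6. HSPA8 was lower in both pairs, with 105 and 50.5 RPKM with cycloheximide.

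The leucine content of the protein had little relation to the ratio. Over 7288 mRNAs with a complete coding sequence, the leucine share of the protein had a Spearman rho of -0.0028 with the log2 ratio (Pearson r 0.010), the twelfth highest of 20 amino acids. Of 10 bins of about equal size, the one with the least leucine, up to 6.395% of residues, had a median log2 ratio of 0.11, and the one with the most, from 13.4% on, had 0.09. The median protein of the higher mRNAs held 9.67% leucine, of the lower 8.96% (9.59% without ribosomal proteins) and of the others 9.75%. Of the bin with the least leucine 4.66% were at least 2-fold lower and of the bin with the most 1.23%. The 6 leucine codons went different ways. UUA had a rho of 0.24, the highest of all 61 codons, CUU 0.20, UUG 0.17 and CUA 0.14, whereas CUC had -0.12 and CUG -0.19. Over all codons the sign went largely with the last base. All 30 codons ending in A or U had a rho above 0 and 28 of the 31 ending in G or C had one below 0, with UUG the highest of the 31, and UUA was followed by UCA (0.23, serine) and GAA (0.23, glutamate). The share of codons ending in G or C had a rho of -0.27. These are correlations across mRNAs of 1 pair of libraries, which are no replicates, and codon composition, length and mRNA level were not separated.

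Coding length had the strongest relation of those computed, with a rho of 0.31 (Pearson r 0.26 with log10 length). From the shortest of 10 bins of mRNAs (111 to 483 nt) to the longest (2592 to 13122 nt) the median log2 ratio ran from -0.15 to 0.45, and from -0.11 without ribosomal proteins. The share at least 2-fold higher was 6.68% in the shortest bin and 11.2% in the longest, and the share lower was 6.82% and 1.24%. MYH10, IQGAP1, PRKDC and MYH9 are among 9 mRNAs of the longest bin that were lower all the same. The 501 higher mRNAs with a complete coding sequence had a median length of 1569 nt, the 153 lower 717 nt and the others 1188 nt.

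**Figure D5:**
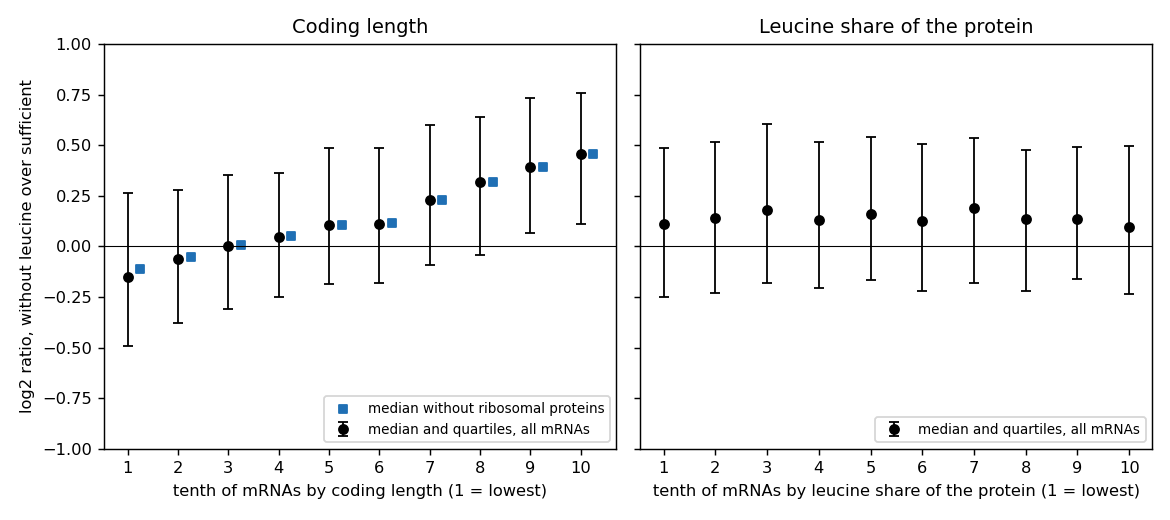
Median log2 ratio of Leu- over Suff with quartiles (bars) in 10 bins of 7288 mRNAs by coding length (left) and by the leucine share of the protein (right), where blue squares leave out ribosomal proteins. The medians climb from -0.15 to 0.45 with length and stay between 0.09 and 0.19 over all bins of leucine share.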

How the data were processed

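The authors ran HEK293T lysates on sucrose gradients, pooled the ribosome fractions, treated the pool with RNase I, and sequenced the polyadenylated footprints. Reads of 25 to 35 nt were aligned by them with Bowtie to the human transcriptome (GRCh38), without mismatches and keeping unique hits, and the authors deposited RPKM values per Ensembl transcript. The deposited records name the tables without cycloheximide as free of duplicate reads, a step the methods do not describe, and the annotation release is not given in the sources used here. Transcripts were named with GENCODE 44, which held 96.7% of those listed. Each gene kept its highest transcript. Pairs with a mean RPKM of at least 10 were compared as log2(RPKM + 1) ratios and called from 2-fold, computed in Python 3.11.15 and pandas 2.3.3. Reads were recovered where values were whole multiples of 1 read within 0.01 (97.2% of transcripts), and their ratios have 95% exact intervals. Named are mRNAs of the 15 largest ratios in each direction among those listed in both libraries. Within the lists, members with large ratios or at the ends of the range are named, but not in every list. A named member is therefore not always the extreme of its list. Further members were named for their role after their values were seen. The gene lists and members were chosen with earlier results of these data known. No test was made, since each condition has 1 library. The alternatives were another pseudocount, minimum, threshold, centring and depth. Values of some list members are not reported here.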

Additional observations from a re-analysis of the deposited data

Results flagged for a closer look

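Among 4873 mRNAs compared without cycloheximide and listed in both libraries of the pair with it, 1 was called in opposite directions. It was at least 2-fold higher in one pair and at least 2-fold lower in the other. MT-ND4L, a mitochondrially encoded subunit of respiratory complex I, had 47.2 RPKM in Suff and 144 in Leu- without cycloheximide, a log2 ratio of 1.59. With cycloheximide it had 1153 RPKM in Suff and 402 in Leu-, a log2 ratio of -1.52. Without cycloheximide the Arg- library had 136 and the Met- library 111 RPKM. The difference between the pairs was not tested, each rests on 1 library a side, and the cause was not tested. Where mRNAs listed in only 1 library of the cycloheximide pair are included, 5 of 125 lower mRNAs were higher there. Of the 119 listed in both, 0 were.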

How the results depend on the processing

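No paired analysis was possible because each condition has 1 library and the labels give no replicate numbers. Against 521 higher and 160 lower mRNAs, the counts were 149 and 92 with a mean RPKM of at least 50, 1038 and 720 with no minimum, 341 and 264 with ratios centred on their median, 1639 and 593 at a 1.5-fold threshold, and 105 and 21 at a 3-fold threshold. The share of higher mRNAs that were also higher with cycloheximide, 82.1% over all compared there, was 74.4% with the minimum of 50, 89.2% without a minimum, 64.2% over mRNAs listed in both libraries, 89.1% with at least 32 reads and 64.8% where both RPKM values reached 10, a setting chosen after the data were seen. The share of lower mRNAs also lower there, 52%, was 62.8% with the minimum of 50 and 41.0% without one. Over all mRNAs compared there 26.3% were higher and 6.32% lower, and over those listed in both libraries 12.1% and 7.28%. An mRNA listed there in Leu- alone counts as 0 RPKM in Suff, so it is called higher whenever it passes the filter. The 82.1% includes such mRNAs. With the minimum of 50, 75% of the compared transporters were higher. Centring put 56.8% of the large subunit proteins past 2-fold lower. The sterol list had 0% higher with the minimum of 50, with centring, with the Suff library thinned to equal depth and where both RPKM values reached 10. Another minimum or the need to be listed in both libraries only selects mRNAs, so the ratios of the named extremes could not change there. IQGAP1, PRKDC, TXNIP and DDR2 were among the extremes no longer compared with the minimum of 50. Another pseudocount and centring shift ratios of this size too little to reverse them. The unchanged direction of the extremes is therefore no separate support. With the minimum of 50 the median of all mRNAs went from 0.14 to -0.0014 and the rho of the leucine share from -0.0028 to 0.013. The cause of the shifts was not tested. Values were also recomputed for the named extremes and the lists outside amino acid supply, stress, ribosome, heat shock and sterols. Of these, 609 kept to the reported ones within counting error or their margin and 17 did not. Part of the 609 could not differ, because a changed minimum leaves the ratio of an mRNA as it is. Summing the transcripts of a gene gave the same 521 and 160 calls. The 609 are therefore no measure of stability. With the Suff library thinned to the depth of Leu-, DDIT3 and NUPR1, with 8 reads each in Suff, fell under the 5 reads a listed transcript has there. Their Suff value was then set to 0. The resulting log2 ratios of 6.79 and 7.36 rest on the pseudocount and are among the 17.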
